A study of Mus musculus with 8 samples.

Results

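A set of 10 genes of the endothelium and of vasculogenesis was followed through single mouse embryos on embryonic day 8.5. They were the receptor genes Kdr, Flt1, Tek and Tie1, the junction and surface genes Cdh5, Pecam1, Cd34 and Emcn, and the transcription factor genes Etv2 and Erg. A probe was taken as a member when its RefSeq transcript belonged to 1 of these 10 genes, which gave 14 of the 55681 probes on the array and 10 of 20660 named genes. Kdr, Etv2, Cd34 and Erg had 2 probes each and the other genes had 1.

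RNA of 8 wild-type embryos was labelled with Cy3 and hybridised to 1-colour Agilent arrays, 1 embryo to an array. The embryos fell into a group of 4 sired by males heterozygous for the Eed hypomorphic allele Eedl7Rn5-1989SB (Eed hypo/wt, here HET father) and a group of 4 sired by Eed wt/wt males of the same line (WT father), and each group held 2 females and 2 males. EED is a core subunit of Polycomb repressive complex 2, and the study asked whether the genotype of the father altered expression in offspring that did not inherit the allele. All mothers were wild-type, and embryos were matched for stage at collection. The labels give both parents as C57bl6/129, while a legend of the study names inbred C57 mothers, so the background of the mothers is not settled. Which embryos shared a litter or a sire was not given in the labels. The codes of WT father replicates 2, 3 and 4 began with the same number, 2.2. The breeding plan of the study shows fewer sires of each genotype than the 4 embryos of a group. The 4 embryos of either group may therefore not be independent, and p-values measure only the spread between these samples. The arrays of each father group lay on 1 slide of their own, so father genotype and slide cannot be told apart. The tissue was labelled only as embryo, and in RNA of a whole embryo fewer endothelial cells and less RNA per cell cannot be told apart.

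Endothelial cells arise at this stage from mesodermal precursors in the yolk sac and the embryo, where they assemble the first vessels. ETV2 is the factor that starts this programme and is then switched off. VEGF acts through the receptor encoded by Kdr, with Flt1 as a decoy that binds the same ligand, and the angiopoietin receptor TEK with its partner TIE1 acts later, when vessels remodel. Cdh5 encodes the cadherin of endothelial junctions, Pecam1 an adhesion molecule of the same junctions, and Cd34 and Emcn sialomucins of the endothelial surface. Erg, like Etv2, encodes an ETS factor, and it maintains the differentiated state.

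Levels are given as log2 of the scanner's processed signal minus the 75th percentile of that array, so 0 is the brightness of a probe at that percentile. Probes of different sequence bind their targets with different strength, so a level was compared between embryos and never between probes. All 14 member probes passed the filter on dim probes, 13 of them were well above background on all 8 arrays, and no member spot was saturated. The exception was a second Erg probe, well above background on 3 of 4 WT father arrays and 1 of 4 HET father arrays. Between 29207 and 39559 probes were well above background on an array, and the Y-linked Ddx3y and Eif2s3y were so in 4 of 4 males and 0 of 4 females. WT father replicate 1 and HET father replicate 3 had the most probes above background, and also the highest median signal of all arrays. Their 75th percentiles of processed signal were the lowest, at 943 and 965 against 1071 to 1274 on the others. Where they are called the bright pair below, the name refers to the median alone.

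The upstream sequences of 3 genes are shown because the sexes were later compared at Kdr and Cd34 and because Flt1 is the other VEGF receptor gene. A table of RefSeq promoters on GRCm38.p6 held 8 of the 10 genes, with 1 window each and 3 for Erg. That build is not the mm9 build of the array design, so it was used for sequences alone. Capitals mark CCGGAA or AGGAAG on either strand, which both hold the GGAA core that ETS factors bind and cannot fill the same bases. The windows are the 250 bases before the annotated start, on the minus strand at chr5:75978456-75978705 for Kdr and at chr5:147726012-147726261 for Flt1, and on the plus strand at chr1:194938571-194938820 for Cd34.
Kdr: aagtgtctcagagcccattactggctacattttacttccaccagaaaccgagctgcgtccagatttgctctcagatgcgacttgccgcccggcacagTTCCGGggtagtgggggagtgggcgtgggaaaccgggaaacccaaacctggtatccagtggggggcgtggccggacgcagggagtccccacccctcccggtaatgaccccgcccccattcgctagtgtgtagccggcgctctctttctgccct
Flt1: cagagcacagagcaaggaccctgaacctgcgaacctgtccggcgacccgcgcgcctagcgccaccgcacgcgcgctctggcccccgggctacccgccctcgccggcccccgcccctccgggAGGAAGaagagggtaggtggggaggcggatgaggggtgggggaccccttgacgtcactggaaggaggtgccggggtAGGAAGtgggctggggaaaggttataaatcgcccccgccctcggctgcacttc
Cd34: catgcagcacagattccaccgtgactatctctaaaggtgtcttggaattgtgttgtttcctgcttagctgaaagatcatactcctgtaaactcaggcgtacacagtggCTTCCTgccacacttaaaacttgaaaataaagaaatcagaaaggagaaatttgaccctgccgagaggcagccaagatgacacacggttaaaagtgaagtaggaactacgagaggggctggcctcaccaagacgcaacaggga

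Among the 10 windows of the endothelial genes, CCGGAA lay in 1, that of Kdr, against 12% of 32851 windows over all genes. AGGAAG lay in 6 of the 10, those of Cd34, Emcn, Etv2, Flt1, Tie1 and 1 of the 3 Erg starts, against 29.5% of all windows. The GATA motif GATAAG was found in 1 window of Erg and in 6.55% of all windows. A match of letters is a description and no evidence that a factor binds there, and the array does not measure binding.

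Between father groups no endothelial gene differed beyond the spread between embryos. Of 33106 probes tested with limma, 0 were called at an adjusted p under 0.01 and at least 2-fold, which is 0% of probes, and 4.39% had an unadjusted p under 0.05. Of the 14 member probes 0 had an unadjusted p under 0.05, and at the brightest probe the groups overlapped for all 10 genes, where 4.24% of 15388 genes had an unadjusted p under 0.05 and 3.74% did not overlap. Differences at the brightest probes ran from -0.05 for Erg to 0.18 for Tek on the log2 scale, with every adjusted p at 0.9996. Each 95% interval there lay between -0.51 and 0.67. At these probes the intervals thus end at 1.43-fold lower and 1.59-fold higher in embryos of HET fathers. Outside these bounds lay the intervals of the second Erg probe (-0.62, -1.48 to 0.23) and the second Etv2 probe (0.31, -0.10 to 0.73). The number of arrays limits this precision.

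**Figure D1:**
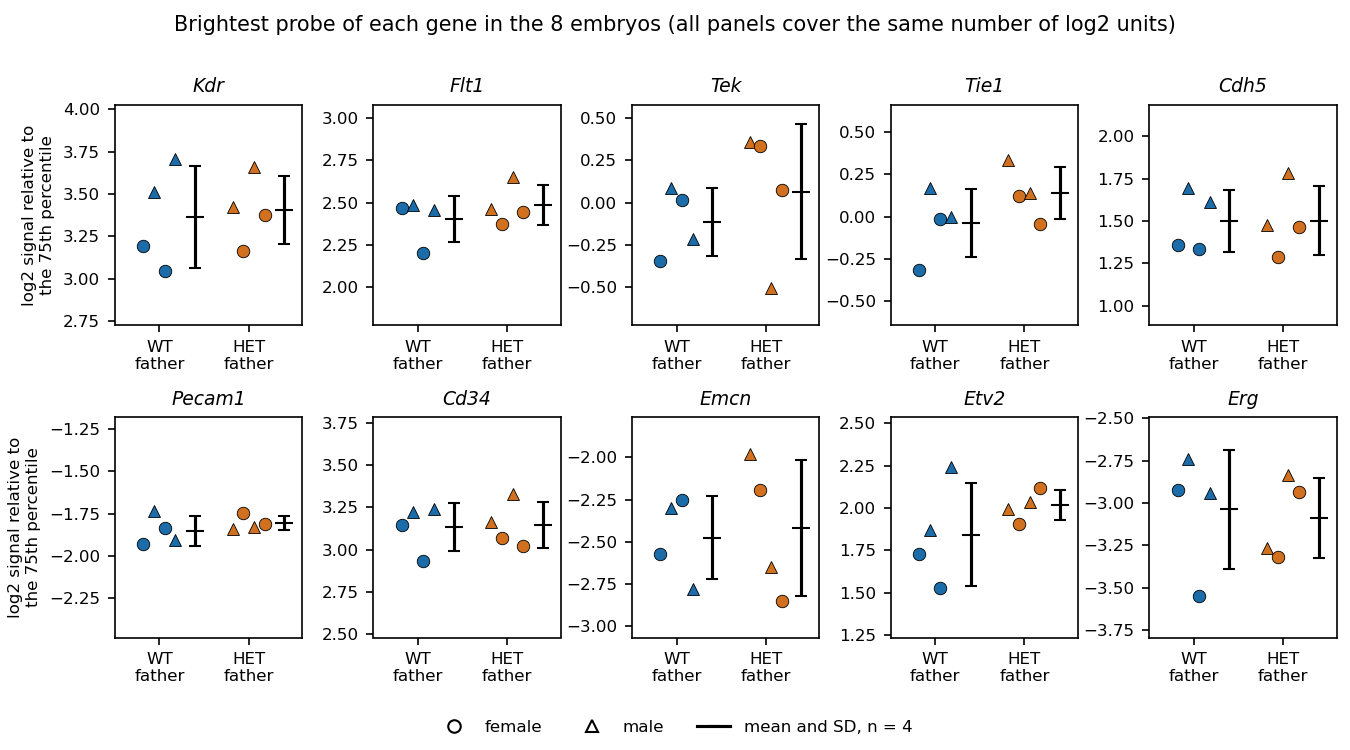
Level of the brightest probe of each gene (y axis, log2 signal relative to the 75th percentile of the array) in embryos of WT and HET fathers (x axis), with circles for females, triangles for males, and a bar for the mean and SD of 4 embryos. The father groups overlap in every panel, and the triangles lie above the circles for Kdr, Cdh5 and Cd34.

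Kdr was bright in every embryo. At its brighter probe, A_51_P316553, the WT father females read 3.19 and 3.04 and the males 3.51 and 3.71, while the HET father females read 3.17 and 3.37 and the males 3.43 and 3.66. Every male lay above every female in both father groups, and the range of the HET father group lay inside that of the WT father group. The group means were 3.36 ± 0.30 (SD, n = 4) for WT fathers and 3.41 ± 0.20 (SD, n = 4) for HET fathers, a difference of 0.04 (95% interval -0.36 to 0.44). Males exceeded females by 0.38 (0.13 to 0.64), or 1.30-fold, with limma's adjusted p at 0.9996.

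The second Kdr probe, A_55_P2094469, did not show the same order of embryos. It read 2.51 and 2.23 in the WT father females, 2.12 and 2.26 in the males, 2.32 and 2.67 in the HET father females and 2.36 and 2.61 in the males. The WT father males were among the 3 lowest embryos there, and the sexes overlapped. Its sex difference was -0.10 (95% interval -0.39 to 0.20), and the difference between the effects of both Kdr probes was 0.48 (0.24 to 0.72), with an adjusted p of 0.99 by limma over 4029 genes with a pair of tested probes. With the mean of both probes the sex difference of Kdr was 0.14.

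Flt1 varied little. The WT father females read 2.47 and 2.20 and the males 2.49 and 2.45, and the HET father females read 2.37 and 2.44 and the males 2.47 and 2.65. WT father replicate 3, a female, lay apart below the other 3 embryos of its group. The difference between father groups was 0.08 (95% interval -0.14 to 0.30), and that between males and females 0.14 (-0.07 to 0.35).

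Tek had a wide spread, with levels of -0.35 and 0.02 in the WT father females, 0.09 and -0.22 in the males, 0.33 and 0.07 in the HET father females, and 0.36 and -0.50 in the males. The 2 males of HET fathers held the highest and the lowest value of all 8 embryos. The mean of the HET father group lay 0.18 above that of the WT father group (95% interval -0.31 to 0.67), a value that was 0.37 without HET father replicate 3 and 0.083 without HET father replicate 1. Tek was the only gene of the 10 with a lower mean in males (-0.09, interval -0.62 to 0.44), though not when the arrays of highest median signal were left out (0.03).

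Tie1 read -0.31 and -0.02 in the WT father females, 0.17 and 0.00 in the males, 0.12 and -0.04 in the HET father females and 0.33 and 0.14 in the males. The lowest embryo was WT father replicate 1 and the highest HET father replicate 1. The father difference was 0.18 (95% interval -0.12 to 0.47) and the sex difference 0.22 (-0.02 to 0.47), with overlap in both comparisons.

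Among the junction and surface genes, Cdh5 and Cd34 ordered the embryos by sex as Kdr did. Cdh5 read 1.36 and 1.33 in the WT father females, 1.70 and 1.61 in the males, 1.29 and 1.46 in the HET father females and 1.47 and 1.78 in the males. The highest female, HET father replicate 4, and the lowest male, HET father replicate 1, were almost level. Males were 0.28 above females (95% interval 0.06 to 0.50), or 1.21-fold. The father groups had a difference of 0.00 (-0.31 to 0.32).

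Cd34 at its brighter probe, A_51_P204740, read 3.15 and 2.93 in the WT father females, 3.22 and 3.24 in the males, 3.07 and 3.02 in the HET father females and 3.16 and 3.33 in the males. The separation of the sexes was again narrow, since WT father replicate 1, a female, was just under HET father replicate 1, a male. Males were 0.20 above females (95% interval 0.01 to 0.38), or 1.15-fold, and the father difference was 0.01 (-0.23 to 0.25). The dim second probe, A_55_P2009225, ranged from -3.93 to -3.14 over the embryos and gave a similar sex difference of 0.22 with a wider interval (-0.16 to 0.60) and overlapping sexes.

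Pecam1 was the steadiest of the 10 genes. Its levels were -1.93 and -1.84 in the WT father females, -1.73 and -1.91 in the males, -1.75 and -1.81 in the HET father females and -1.84 and -1.83 in the males. All embryos lay within 0.20 of each other, and the residual SD of 0.0686 stood at the 6.09th percentile of all tested probes. The father difference of 0.04 (95% interval -0.12 to 0.20) and the sex difference of 0.00 (-0.17 to 0.18) had the narrowest intervals of the 10 genes.

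Emcn spread the most between embryos of 1 group, with its residual SD at the 68.0th percentile. It read -2.57 and -2.26 in the WT father females, -2.30 and -2.78 in the males, -2.20 and -2.85 in the HET father females and -1.98 and -2.65 in the males. High and low embryos occurred in both sexes and both father groups. The father difference was 0.06 (95% interval -0.45 to 0.57) and the sex difference 0.04 (-0.52 to 0.61).

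Of the transcription factor genes, Etv2 had readable signal from both probes. At the brighter, A_51_P137560, it read 1.73 and 1.52 in the WT father females, 1.87 and 2.24 in the males, 1.91 and 2.12 in the HET father females and 2.00 and 2.03 in the males. The WT father group held both the lowest and the highest embryo, while the HET father group was tight, at 2.01 ± 0.0886 (SD, n = 4) against 1.84 ± 0.30 (SD, n = 4). The father difference was 0.17 (95% interval -0.18 to 0.53), or 0.31 without WT father replicate 4 and 0.067 without WT father replicate 3, and the sex difference was 0.22 (-0.12 to 0.55), or 0.098 without WT father replicate 4. The second probe, A_55_P1953588, read -0.19 and 0.11 in the WT father females, 0.34 and 0.63 in the males, 0.54 and 0.67 in the HET father females and 0.59 and 0.33 in the males. There the WT father females lay below the other 6 embryos, and the father difference was 0.31 (-0.10 to 0.73).

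Whether the father difference itself differed between the sexes was tested with an interaction term, with 2 embryos for each sex and father. Of all probes 0% were called and 2.23% had an unadjusted p under 0.05, and 1 of the 14 member probes did, the second Etv2 probe. Its father difference in males minus that in females was -0.67 ± 0.25 (SE), with an adjusted p of 0.9955 by limma, and the brighter Etv2 probe gave -0.43 ± 0.24 (SE).

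Erg was dim. At the brighter probe, A_55_P2015862, it read -2.92 and -3.55 in the WT father females, -2.74 and -2.94 in the males, -3.32 and -2.94 in the HET father females and -3.26 and -2.84 in the males. WT father replicate 3 was the lowest embryo and WT father replicate 2 the highest, so 1 group held both ends. The father difference was -0.05 (95% interval -0.51 to 0.41), or -0.34 with the mean of both probes. The sex difference was 0.24 (-0.23 to 0.70), but 0.079 without WT father replicate 3, 0.091 after the median shift, 0.086 after quantile normalization and 0.063 after normexp. The second probe, A_55_P2113832, gave a father difference of -0.62 (-1.48 to 0.23), and its levels ran from -6.16 to -4.14, where most arrays of HET fathers were not well above background.

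**Figure D2:**
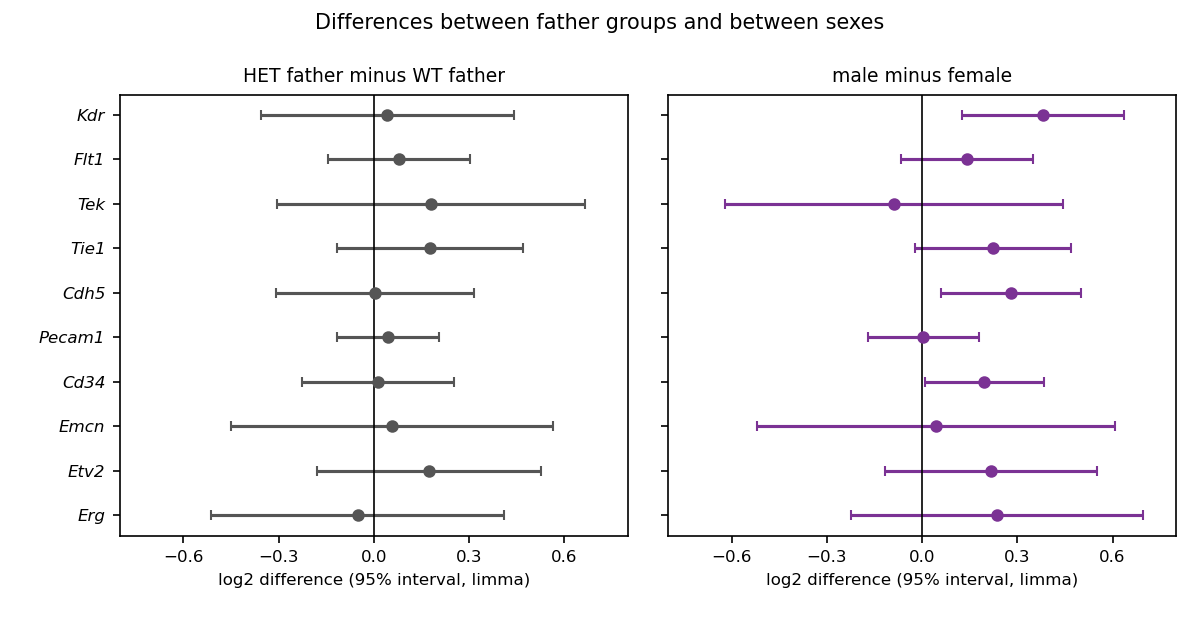
Log2 difference of each gene at its brightest probe between father groups (left, HET father minus WT father) and between sexes (right, male minus female), with 95% intervals from limma over 8 embryos. All intervals on the left cross 0, and on the right those of Kdr, Cdh5 and Cd34 do not.

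Read together, 9 of the 10 genes had a positive father difference, where 58.2% of 15388 genes did, and the median over the 10 was 0.05 against 0.02 over all genes. This direction depended on the scaling. With each array shifted by its median in place of the 75th percentile, the median of all genes moved to -0.08 and 3 of the 10 differences were positive, and with quantile normalization or normexp background correction 6 of 10 were. Relative to the median of all genes in each scaling, 7 of 10 were higher under the percentile or median shift and 6 of 10 under the others.

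The sexes were compared in a fit that held the father group. Of 33106 probes 11 were called, or 0.0332%, among them probes of Xist and of Y-linked genes, and 0 of these were member probes. At an unadjusted p under 0.05, 3 of the 10 endothelial genes were higher in males (Kdr, Cdh5 and Cd34), where 1.53% of 15388 genes were, and the same 3 did not overlap between sexes, where 1.66% of genes lay higher in all males. Their adjusted p was 0.9996 each. In all, 9 of 10 genes had a positive difference against 58% of all genes, with a median of 0.21 against 0.02. At the brightest probes the highest value of each gene was found in a male, and the share of all genes with this trait was not counted. HET father replicates 1 and 3 had 3 each, and WT father replicates 2 and 4 had 2 each. WT father replicate 3, a female, had the lowest value of 5 genes at these probes. The second probes of Kdr and Etv2 were highest in a female, HET father replicate 4, and those of Cd34 and Erg in a male.

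These counts also depended on the processing. Of the 10 genes, 0 had an unadjusted p under 0.05 by sex after the median shift, where the share of all genes higher in males also fell, to 0.195%. The count was 2 after quantile normalization (1.61% of all genes), 1 after normexp (1.68%), and 0 without WT father replicate 1 and HET father replicate 3, the arrays of highest median signal (1.19%). The count of genes without overlap was 0 after the median shift (0.111% of all genes), 1 after quantile normalization (1.85%), 1 after normexp (1.37%) and 4 without the bright pair (4.78%). At an unadjusted p under 0.05, leaving out WT father replicate 2 or HET father replicate 2 alone left 1 gene. Under the median shift the median of all genes moved to -0.12 and 6 of 10 genes had a positive difference, and Flt1, Pecam1 and Emcn were then lower in males. Relative to the median of all genes, 8 of 10 genes were higher in males under either shift and 7 of 10 under the other scalings.

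Other genes of the endothelium were read from 4 lists of 69 genes in all, each gene tested at its brightest probe. Of these 69 genes 11 had an unadjusted p under 0.05 between sexes and all 11 were higher in males (15.9%, against 1.53% of all genes), and 63 had a positive difference, where 58% of all genes did. Among the 15 genes of the VEGF and angiopoietin pathway the 1 gene was Nrp1, a VEGF co-receptor. Among 15 transcription factor genes the 3 were Ets1, Sox7 and Sox18. Among 25 surface and junction genes the 5 were Cldn5, a tight junction claudin, Eng, a TGF-beta co-receptor, Mmrn2, Plvap and Ramp2, and among 14 arterial and venous genes the 2 were Heyl and Notch4. All were named after their values were seen. After the median shift the count was 0 of 69 (0.195% of all genes) and 33 differences were positive (17.9% of all genes). The count was 11 after quantile normalization (1.61% of all genes) or normexp (1.68%) and 8 without the pair of bright arrays (1.19%). Adjusted p was 0.9996 for each gene named here.

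In 3 of the lists the gene of smallest p without overlap between the sexes was Sox18, a SoxF factor of vessels, Plvap, which forms the diaphragms of endothelial pores, and Notch4, a Notch receptor of endothelium. Sox18 averaged 0.48 ± 0.0990 (SD, n = 4) in males against 0.11 ± 0.19 in females. The mean of Plvap was 2.72 ± 0.0503 for males against 2.45 ± 0.0609 for females. Notch4 stood at -0.21 ± 0.10 against -0.52 ± 0.16. These 3 were picked among genes without overlap, so their separation is no further result. Over the 69 genes, 7 lay higher in every male than in every female, against 1.66% of all genes. This count of 7 was not repeated under the other scalings.

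Between father groups, 6 of the 69 genes had an unadjusted p under 0.05, all higher with HET fathers (8.7%, against 2.82% of all genes), and 57 differences were positive, where 58.2% of all genes were. After the median shift 0 of the 69 had such a p (0.188% of all genes) and 34 differences were positive (25.5%), after quantile normalization 6 (2.15%) and 52 (50.1%), and after normexp 10 (5.2%) and 48 (50%). Without the pair of bright arrays, 6 genes were higher at such a p (2.58% of all genes) and 1 was lower. There 47 differences were positive (52.1%). Under the 75th percentile shift of all 8 arrays, the 6 genes were Pgf, Vegfb, Tal1, Epas1, Vwf and Gja4. The father groups did not overlap for 4 of the 69 genes, all higher with HET fathers. Of all genes 3.74% did not overlap, in either direction. Among the 4 were Pgf, a ligand of the FLT1 receptor, and Tal1, a factor of blood and endothelial precursors. Nrp2 and Acvrl1 completed them, with an unadjusted p above 0.05. Pgf read -2.55, -2.42, -2.26 and -2.15 in embryos of WT fathers and -1.97, -2.02, -1.75 and -1.99 in those of HET fathers. The difference was 0.41 (95% interval 0.15 to 0.67), with limma's adjusted p at 0.9996. Tal1 averaged 2.11 ± 0.21 (SD, n = 4) with WT fathers and 2.41 ± 0.0344 (SD, n = 4) with HET fathers, a difference of 0.30 (0.04 to 0.56), also with an adjusted p of 0.9996. Summed as linear signal, the VEGF and angiopoietin list ran from 54.3 to 62.2 with WT fathers and from 63.0 to 67.1 with HET fathers. The transcription factor list ran from 36.0 to 41.4 and from 42.2 to 45.9, so neither sum overlapped. All sums were taken under the 75th percentile shift alone and were not repeated under another scaling. No share over all genes was computed for a sum. Overlap was found for the surface and junction list (105.3 to 123.5 and 117.1 to 135.1). It was also found for the arterial and venous list (30.93 to 38.36 and 34.14 to 42.05). The sums of the 10 endothelial genes overlapped too (28.45 to 38.18 and 31.71 to 38.89). A sum follows the brightest genes, such as Nrp2 in the VEGF and angiopoietin list, with a mean level of 4.70. The mean log2 deviations of the VEGF and transcription factor lists did overlap between father groups.

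**Figure D3:**
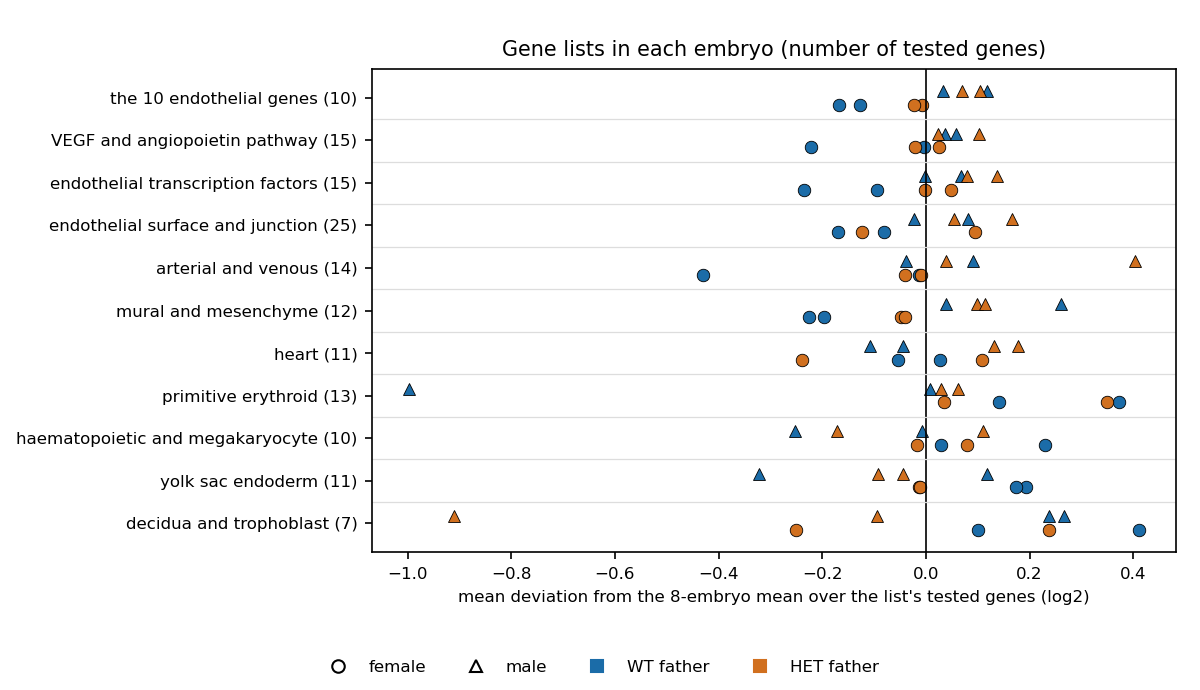
Mean deviation of each gene list from its mean over the 8 embryos (x axis, log2), 1 point for each embryo, with circles for females, triangles for males, blue for WT fathers and orange for HET fathers. The 10 endothelial genes run from -0.17 to 0.12 with every male above every female, and WT father replicate 4 stands at -0.998 in the primitive erythroid list.

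Averaged over the 10 genes, embryos deviated from their common mean by -0.17 to -0.01 in females and by 0.03 to 0.12 in males, and by -0.17 to 0.12 with WT fathers and -0.02 to 0.10 with HET fathers. Markers of other cell types are given beside these values. Of 13 primitive erythroid genes 0 had a higher mean in males, where 58% of all genes did, and their median difference was -0.48. Gata1, the leading erythroid transcription factor gene, averaged 2.88 ± 0.33 (SD, n = 4) in males against 3.45 ± 0.0771 in females, at an unadjusted p under 0.05, where 1.22% of all genes were lower in males at that threshold. The summed linear signal of that list ran from 861.5 to 1256 in females and from 526 to 1021 in males. Without WT father replicate 4, which was far below the other embryos, the median was -0.24. The zeta globin gene Hba-x averaged 7.17 ± 0.45 (SD, n = 4) in males against 7.59 ± 0.12 in females, and Hbb-bh1 8.59 ± 0.23 against 8.82 ± 0.13. The part of blood cells in the sex difference of the endothelial genes was not tested.

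Yolk sac endoderm genes had a higher mean in males in 0 of 11 cases, against 58% of all genes. Of them 1, Apoa4, was lower in males at an unadjusted p under 0.05, as were 1.22% of all genes. Males and females averaged 7.18 and 7.50 at Afp and 6.21 and 6.29 at Ttr. Their summed signal ran from 717 to 816 in females and from 579 to 765 in males. Mural and mesenchymal genes leaned the other way, with 11 of 12 higher on average in males. Their summed signal was 74.1 to 78.7 in females and 79.8 to 85.6 in males. Tbx18 and Twist1, or 2 of them, were higher in males at an unadjusted p under 0.05, as were 1.53% of all genes. For Apoa4, Tbx18 and Twist1 limma's adjusted p was 0.9996. In the heart list 6 of 11 genes had a higher mean in males and 0 an unadjusted p under 0.05, with Nkx2-5 and Myl7 averaging 1.57 and 3.52 in males and 1.46 and 3.54 in females. Among 10 haematopoietic and megakaryocyte genes 0 had an unadjusted p under 0.05 and 3 had a higher mean in males, with a median difference of -0.15, and Pf4 averaged -2.56 in females and -2.53 in males. After the median shift 17.9% of all genes had a higher mean in males, and the lists of this paragraph were not counted again under that scaling. The part of these tissues in the endothelial values was not tested.

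Between father groups the same marker lists overlapped in every case. The summed signal of the erythroid genes was 526 to 1256 with WT fathers and 861.5 to 1085 with HET fathers, that of the yolk sac genes 579 to 816 and 709 to 743, and that of the heart genes 216 to 230 and 210 to 241. The decidual prolactin gene Prl8a2, a maternal marker, read 1.99, 2.92, 1.56 and 2.31 with WT fathers and 0.72, 0.30, -2.61 and 0.54 with HET fathers, a difference of -2.45 (95% interval -4.21 to -0.70) with an adjusted p of 0.9996 by limma and no overlap. Of all genes 3.74% did not overlap between father groups. The summed signal of the 7 decidual and trophoblast genes tested overlapped between groups, at 20.9 to 47.5 and 21.1 to 47.9. That sum follows its brightest gene, Gcm1, with a mean of 4.24 over the embryos. Hand1 of the same list had a mean of 2.86, while the trophoblast marker Tpbpa was well above background on 0 arrays. The part of maternal tissue was not tested.

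**Figure D4:**
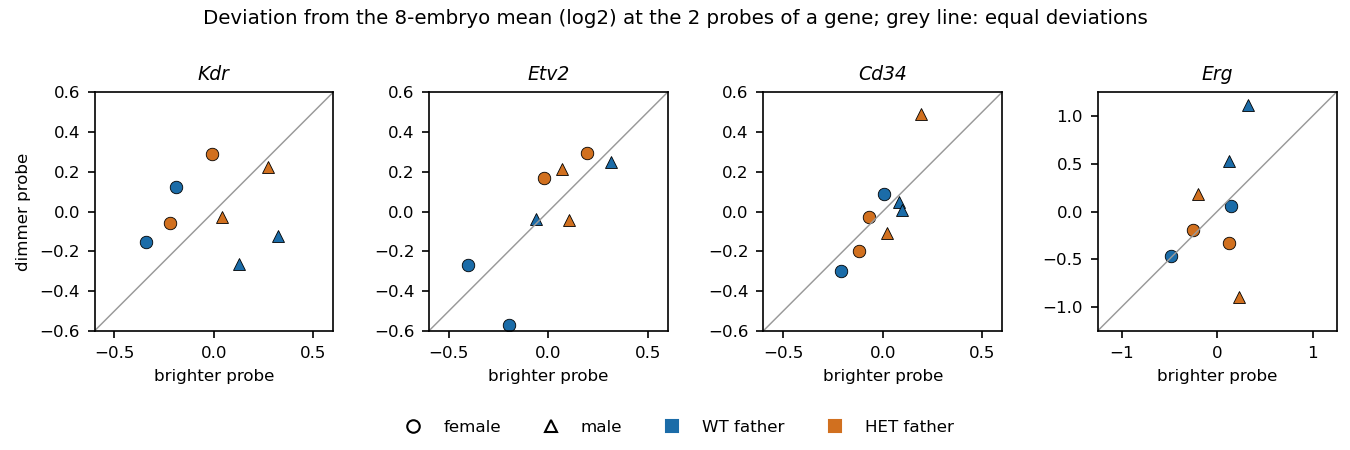
Deviation of each embryo from the 8-embryo mean (log2) at the brighter probe (x axis) and the dimmer probe (y axis) of Kdr, Etv2, Cd34 and Erg, with symbols as for the gene lists and a grey line where both deviations are equal. Points for Kdr and Erg scatter widely around the line, and Erg has axes of a wider range.

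The genes varied differently between embryos of 1 father group. Residual SDs at the brightest probe ranged from 0.0686 for Pecam1 to 0.33 for Emcn, and 5 of the 10 genes lay under the median of all tested probes. Flt1 at the 26.3rd percentile, Cd34 at the 30.6th, Tie1 at the 42.2nd and Cdh5 at the 45.5th were the other steady genes. Etv2, Kdr, Erg and Tek stood between the 51.8th and the 66.1st.

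Of 12119 genes whose range over the embryos was at least that of the mean profile of the 10 genes (0.29), the 5 nearest to it by mean absolute difference over 8 embryos were Rsbn1 at 0.0303, Gucy1a1 at 0.0312, Pcdh12 at 0.0359, Snrk at 0.0386 and Vim at 0.0389. Pcdh12 encodes a protocadherin of endothelial junctions, Gucy1a1 a subunit of the nitric oxide receptor guanylate cyclase, Snrk a kinase and Vim the intermediate filament protein vimentin. These are descriptions of 8 arrays that share the scaling of each array.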

How the data were processed

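Arrays were scanned and quantified by the authors (Agilent Feature Extraction, version 11.0.1.1). The deposited files hold the processed spot intensity (background-subtracted and detrended), per the file headers on a grid of build mm9. The deposited series table also holds a processed intensity. Under the same shift it gave slightly different father differences (Kdr 0.0412 against 0.0422, Erg -0.0542 against -0.0506). From each log2 intensity the 75th percentile of that array over non-control spots was subtracted, and the spots of a probe were averaged after removal of those with an outlier mark. Probes well above background on at least 4 of 8 arrays and outside the lowest 20% by mean were tested with limma 3.58.1 in R 4.3.3, adjusted by Benjamini-Hochberg, and called at an adjusted p under 0.01 and 2-fold. Father was the only term for the father comparison, and father and sex for the sexes. Names came from RefSeq (27235 of 28685 RefSeq probes matched), and a gene was read at its brightest tested probe. Members and lists were chosen with earlier results of these data known. From other lists, genes at an unadjusted p under 0.05 without overlap between father groups were named, at most 3 a list. Alternatives covered scaling, normexp, filters, covariates, blocks, weights, thresholds and single arrays. The fit was tested on simulated data. A result that rests on a withheld item is not reported here.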

Additional observations from a re-analysis of the deposited data

Results flagged for a closer look

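Of 28 groups of 4 embryos examined (14 probes in 2 father groups), 1 held an embryo far from the other 3. Flt1 in WT father replicate 3, a female, read 2.20 against 2.45 to 2.49 in the rest of its group, and its gap to the nearest embryo was 0.883 of the whole range of the group, over Dixon's limit for a group of 4. Chance gives about 1 in 20 such groups.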

How the results depend on the processing

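No endothelial gene was called between father groups, between sexes or for the interaction under any alternative, where limma gave counts of 0 throughout, and at an unadjusted p under 0.05 between father groups the count was 0 to 1, with 1 gene when WT father replicate 4 (Etv2, 0.307) or HET father replicate 3 (Tek, 0.369) was left out. In the interaction, leaving out an embryo left 1 sample in an arm, which was assumed to vary like the others. Values follow as log2 differences, and the cause of each move was not tested. Between father groups, the median shift gave -0.0638 for Kdr, -0.0257 for Flt1, -0.103 for Cdh5, -0.0611 for Pecam1, -0.0942 for Cd34, -0.0484 for Emcn and -0.0548 for the median of the 10 genes. Quantile normalization gave -0.0113 for Cdh5, -0.00847 for Pecam1 and -0.0838 for Emcn, and normexp -0.115, -0.0169 and -0.0541. Without WT father replicate 1 and HET father replicate 3, which was chosen after seeing the data like all alternatives for single genes between sexes, Kdr was at -0.0986, Cdh5 at -0.138 and Cd34 at -0.0462. Leaving out 1 embryo at a time gave -0.0645 to 0.157 for Kdr, -0.0904 to 0.0737 for Cdh5, -0.0556 to 0.0534 for Cd34, -0.0893 to 0.202 for Emcn and -0.221 to 0.0482 for Erg.

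Between sexes, the median shift gave -0.00321 for Flt1, -0.141 for Pecam1 and -0.101 for Emcn, quantile normalization -0.0282 for Pecam1 and -0.0788 for Emcn, and normexp -0.0362 and -0.0546. Without the pair of bright arrays Pecam1 was at -0.0222 and Tek at 0.0348. With 1 embryo left out, Pecam1 ranged from -0.0421 to 0.0287, Tek from -0.223 to 0.121 and Emcn from -0.124 to 0.173. At their brightest probes the sign of Kdr, Cdh5, Cd34, Tie1, Etv2 and Erg held in each of these. The second Kdr probe had the opposite sign (-0.0979), while the second probes of Cd34, Etv2 and Erg had the same sign as the first.

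Over all probes, the father comparison called 0 to 1 with an embryo left out (1 without WT father replicate 1 or without HET father replicate 4) and 1 without the bright pair. The sex comparison called 5 with no filter, 0 when a probe had to be above background on all 8 arrays, which removes probes dark in 1 sex, 7 without the bright pair, and 4 to 9 with an embryo left out. The replicate numbers do not pair the embryos, since same-numbered embryos had correlations of -0.588 to -0.045, and with the replicate number as a block the father comparison called 0 probes, with Kdr at 0.0422.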
